A study of Mus musculus with 12 samples.

Results

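DNA break signalling and repair genes were examined by RNA-seq counts per gene in RAW264.7, a macrophage line of the mouse. The set held 48 genes given by name, found by their gene identifiers among the 32688 genes of the count table. The rule that names them uses no measured value, but they were chosen with earlier results of these data known. Counts of members beside those of all genes are therefore a description. Null cells, called WT in the study's text, and cells in which CRISPR was used against both Tfeb and Tfe3 (double knockout, DKO) were compared. Each line was either a control or was exposed to 100 µM etoposide for 8 h, which gives the groups Null control, DKO control, Null etoposide and DKO etoposide, with 3 libraries in each. By the GEO labels the controls were left untreated, and by the methods of the study they received DMSO. All cells grew in high-glucose DMEM with fetal bovine serum, and neither source gives any further allele or agent. Because each genotype is a single line, the spread among the 3 libraries of a group reflects cultures and libraries and holds nothing on how separately edited lines would vary. In their titles, the DKO etoposide libraries carry the term MEFs (embryonic fibroblasts of the mouse), although their other labels give RAW264.7.

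Etoposide traps topoisomerase II on cut DNA and so leaves double-strand breaks. Breaks are sensed by the apical kinases ATM, ATR and DNA-PKcs, of which ATR works through the checkpoint kinase CHK1 and ATM through CHK2. Broken ends are either rejoined directly, by end joining, or cut back to single strands and repaired from the sister chromatid by homologous recombination, a route open after replication. The Fanconi anaemia proteins deal with crosslinked DNA and protect stalled replication forks, and many recombination and Fanconi genes are transcribed most in S phase under E2F factors. In resting or arrested cells many such genes are repressed by DREAM, a complex of RB-like proteins, E2F4, DP and MuvB that binds their promoters.

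E2F sites are a known route by which this complex reaches a promoter, so RefSeq promoter windows (GRCm38.p6, 250 bases before to 50 bases after the start, 300 bases in all) were searched on both strands for TTTCCCGC, TTTGGCGC, TTTCGCGC and TTTGCCGC. These letters were found in 11 of 42 windows of the members (26.2%; 38 members had a window) and in 744 of all 32851 mouse windows (2.26%). The 10 genes that held them were Bard1, Brca2, Chek2, Clspn, Fancg, Mdc1, Msh6, Rad51c, Topbp1 and Xrcc6. Of these 10, 7 had a lower interaction (the DKO response to etoposide minus the Null response), against 11 of the 28 members whose windows did not hold the letters, 6 of the 10 members with no window and 6.39% of all genes. The 7 became 4 without any 1 of 5 libraries (Null control replicate 2, replicates 1 and 2 of Null etoposide, replicates 1 and 3 of DKO etoposide), whereas the 11 stayed between 10 and 12 and the share of all genes between 4.59% and 6.64% with a library left out. The median interaction was -0.63, -0.26 and -0.83 in these 3 sets, values given as a description with no test. The 7 matches that lay wholly before the start follow on the strand of the gene, 5′ to 3′, with the match in capitals. The stretches were picked by the match, so the capitals are alike by the search. The bases around them were not compared between genes. GCGGGAAA and GCGCGAAA are TTTCCCGC and TTTCGCGC read on the other strand.
Chek2 (chr5:110839805-110839864, plus strand, first base of the match 152 bases upstream of the start): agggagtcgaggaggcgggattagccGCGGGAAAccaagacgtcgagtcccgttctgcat
Brca2 (chr5:150522427-150522486, plus strand, 168 bases upstream): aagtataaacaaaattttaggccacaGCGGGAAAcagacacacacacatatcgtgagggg
Bard1 (chr1:71103148-71103207, minus strand, 209 bases upstream): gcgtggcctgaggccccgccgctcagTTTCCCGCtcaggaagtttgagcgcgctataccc
Mdc1 (chr17:35841438-35841497, plus strand, 16 bases upstream): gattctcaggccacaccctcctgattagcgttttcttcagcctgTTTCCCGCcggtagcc
Topbp1 (chr9:103305187-103305216, plus strand, 129 bases upstream): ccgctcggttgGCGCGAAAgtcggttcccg
Fancg (chr4:43010335-43010364, minus strand, 52 bases upstream): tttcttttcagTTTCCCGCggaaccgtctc
Xrcc6 (chr15:82016312-82016341, plus strand, 46 bases upstream): agggggtggaaGCGGGAAAtgcgagtgggc
Chek2, Brca2, Mdc1 and Fancg belong to the study's list of DREAM targets, and Bard1, Topbp1 and Xrcc6 do not. Windows of members inside that list held the letters in 5 of 20 cases (25%) and windows of members outside it in 6 of 22 (27.3%). The letters TTTGAA, the core of the CHR element through which MuvB binds, were in 4 of 42 member windows (9.52%) and in 17.9% of all windows. The E-box CACGTG, the core that TFEB and TFE3 bind, was in the windows of Xrcc5 and Parp1 (4.76% of 42) and in 7.15% of all windows. A match of letters is a description and not a binding site.

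Library totals ran from 29837255 to 61809316 counts, and every member was detected in every library with 96 to 15525 counts, so that all 48 passed the filter on low counts. Tfeb lay at 17.2, 16.6 and 16.8 CPM in Null control, 3.14, 4.83 and 5.25 in DKO control, 7.62, 7.10 and 7.95 in Null etoposide and 4.27, 4.30 and 4.44 in DKO etoposide libraries. Tfe3 was at 89.4 to 119 CPM in the 6 Null libraries and at 31.5 to 42.5 CPM in the 6 DKO libraries. Transcripts of both targeted genes were thus lower in the DKO line, although still counted. The lowest of 8 macrophage markers in any library was at 4.72 CPM, and the highest of 8 fibroblast markers was at 1.38 CPM. Of the fibroblast markers, 6 (Col1a1, Col1a2, Col3a1, Dcn, Lum and Thy1) never passed 0.135 CPM in any of the 12 libraries, the DKO etoposide libraries with MEFs in their titles included. CPM are counts scaled to the library size after TMM normalization, and a fold change is given on the log2 scale as fitted by limma-trend over all 18066 genes tested.

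Most of these genes fell with etoposide in both lines, and 24 of the 48 had a lower response in DKO than in Null cells. In Null cells 31 of the 48 members were lower after etoposide and 2 were higher (background 18.7% lower and 20.9% higher over all genes), with a median of -0.38 against 0.03 for all genes. DKO cells showed 39 members lower and 1 higher (background 19.1% lower and 20.2% higher), with a median of -0.89 against 0.03. The interaction, which is the DKO response minus the Null response, was lower for 24 members (background 6.39%) and higher for 0 (background 3.07%), with a median of -0.48 against -0.01. Of the 7 members whose interaction was above zero, 0 had an unadjusted p under 0.05 by limma-trend, edgeR's quasi-likelihood test or DESeq2. All 31 members that fell in Null cells also fell in DKO cells, 8 more (Brca2, Chek2, Fancm, Hus1, Msh6, Rad54l, Rad9a and Xrcc2) passed the test in DKO cells and not in Null cells, and 7 (Atrip, Fance, Fancg, Rad1, Rad17, Rnf8 and Trp53bp1) passed it in neither. The Null call was lost under at least 1 alternative for 8 of the 31 (Fanca, Fancc, Fancd2, H2afx, Mre11a, Palb2, Rad50 and Rnf168). Left without the 11 members for which 10% or more of the counts could be reads of an overlapping gene, 20 of 37 had a lower interaction. In bulk samples fewer cells of a kind, such as cells in S phase, and less RNA in each cell cannot be told apart.

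Fewer members differed between the lines before treatment than after it. Between the control cultures 10 members were lower in DKO cells and 5 were higher (background 8.39% lower and 10.9% higher), with a median of -0.15. This count was unsteady, with 16 lower and 2 higher when libraries were scaled by size alone (background 11.4% and 8.74%), and 3 lower when only the 2 control groups were fitted (background 5.37%). Left without single libraries, it was 17 without DKO control replicate 1 (background 12.4%), 4 without Null control replicate 2, Null control replicate 3 or DKO control replicate 3 (6.09%, 6.92% and 6.6%), and 6 without DKO control replicate 2, Null etoposide replicate 2 or Null etoposide replicate 3 (6.95%, 7.33% and 7.2%). After etoposide 35 were lower and 5 higher (background 17.8% lower and 15.9% higher), with a median of -0.65 and a lowest value of -2.99 for Fancd2. For 35 of the 48 members the DKO etoposide libraries all lay below the 9 others, a count that was not made over all genes. These were the members' levels relative to all counts of a library, and the summed CPM of the 48 members was 2940 to 3170 in Null control, 2780 to 2890 in DKO control, 2220 to 2250 in Null etoposide and 1460 to 1520 in DKO etoposide libraries. The contrasts share libraries in pairs and are therefore not independent of each other.

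**Figure D1:**
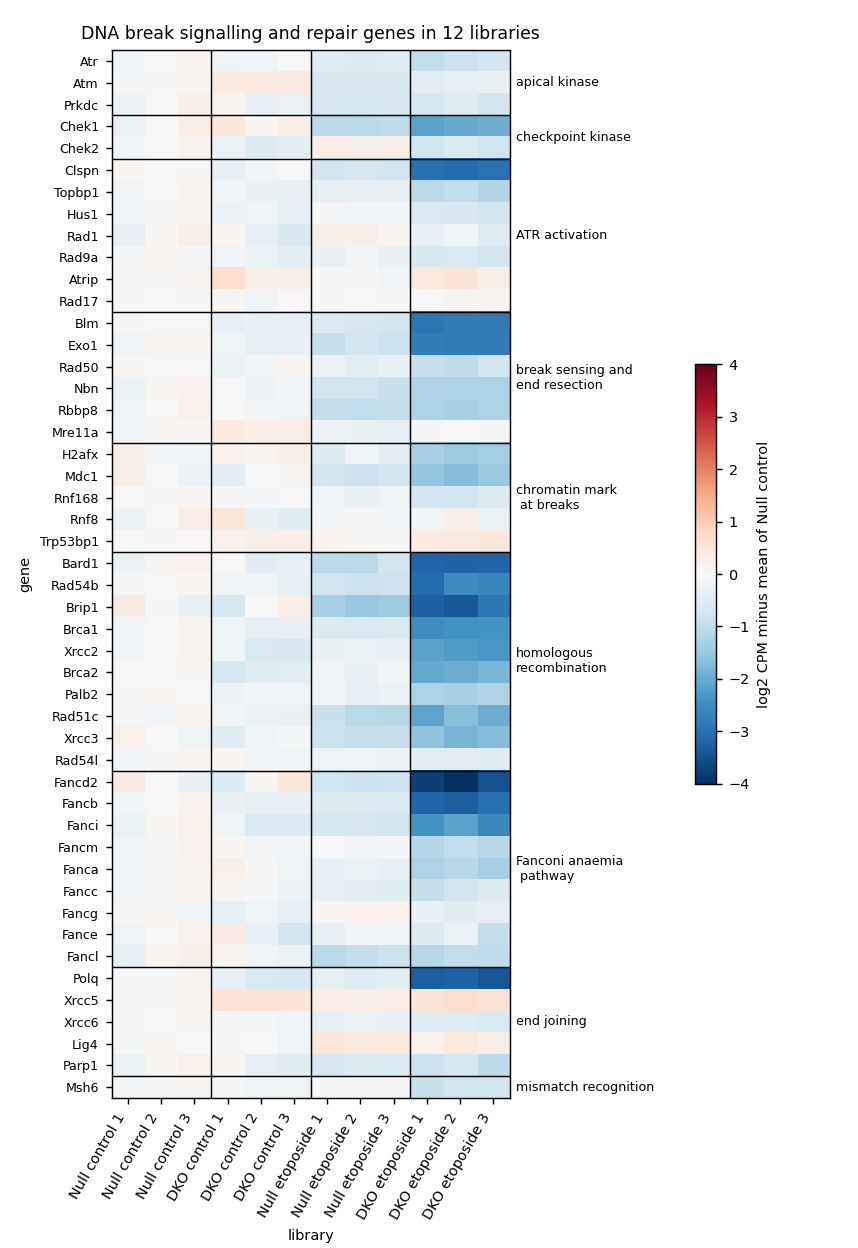
Log2 CPM of the 48 members (rows, grouped by role) in the 12 libraries (columns), as the difference from the mean of the 3 Null control libraries of the same gene; blue is lower and red is higher. The 3 DKO etoposide columns hold the darkest blue and lie below all 9 other libraries for 35 of the 48 genes, a count not made over all genes. The darkest rows are Fancd2, Polq, Fancb, Clspn, Bard1 and Brip1.

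All 3 apical kinase genes fell in both lines (18.7% of all genes fell in Null and 19.1% in DKO cells), and their interactions did not pass the test. Atm (ENSMUSG00000034218.15, chromosome 9, 53439149 to 53536740, minus strand), the kinase that responds to double-strand breaks, lay at 108, 117 and 118 CPM in Null control, 149, 149 and 146 in DKO control, 73.5, 73.8 and 73 in Null etoposide and 83.2, 89.5 and 92.3 in DKO etoposide libraries. Both etoposide groups lay below both control groups without overlap, and the DKO libraries lay above the Null libraries of the same treatment. Atm fell by 0.64 in Null cells (SE 0.0635, limma-trend, Benjamini-Hochberg adjusted p 6.82e-06) and by 0.74 in DKO cells (adjusted p 1.48e-06), and the interaction was -0.11 (SE 0.0898, adjusted p 0.587). Before treatment it was higher in DKO cells by 0.37 (adjusted p 0.000949). Atr, which responds to single-stranded DNA at stalled forks and resected ends, fell by 0.53 in Null and by 0.73 in DKO cells, and its interaction was -0.21 (adjusted p 0.357). Prkdc, which encodes the end-joining kinase DNA-PKcs, fell by 0.67 and by 0.51, with an interaction of 0.17 (adjusted p 0.729).

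Both checkpoint kinase genes had a lower interaction (background 6.39% over all genes), although the Chek2 call did not hold under all alternatives. Chek1 (ENSMUSG00000032113.15, chromosome 9, 36708482 to 36727065, minus strand) encodes CHK1, the kinase that holds cells out of mitosis while DNA is unreplicated or broken. It lay at 32.6, 38.7 and 47.7 CPM in Null control, 54, 41.4 and 46.1 in DKO control, 19, 18.6 and 19.5 in Null etoposide and 8.78, 9.67 and 10.1 in DKO etoposide libraries. The groups after etoposide did not overlap each other or the controls, and the control groups overlapped. Chek1 fell by 1.04 in Null and by 2.30 in DKO cells, an interaction of -1.26 (SE 0.187, adjusted p 0.000834). Chek2 (ENSMUSG00000029521.7, chromosome 5, 110839979 to 110874145, plus strand), whose product CHK2 is activated by ATM, lay at 28.5, 32.8 and 35.9 CPM in Null control, 26.7, 22 and 23.8 in DKO control, 39.9, 37.6 and 38.2 in Null etoposide and 18.5, 21.4 and 18.6 in DKO etoposide libraries. The 3 Null etoposide libraries were above the 9 others and the 3 DKO etoposide libraries below them. Its response was 0.26 in Null cells (adjusted p 0.0667), which did not pass the test, and -0.31 in DKO cells (adjusted p 0.0319, lost under 8 alternatives), and the interaction was -0.57 (SE 0.146, adjusted p 0.0287). The Chek2 interaction stayed between -0.64 and -0.47 over the alternatives but lost its call under 10 alternatives, with an adjusted p of up to 0.0944. After etoposide the DKO level was 2.01-fold (Chek1) and 1.98-fold (Chek2) below the Null level.

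Among the 7 genes of ATR activation, the adaptor gene Clspn had the lowest etoposide response in DKO cells. Clspn (ENSMUSG00000042489.15, chromosome 4, 126556935 to 126593903, plus strand) encodes claspin, which brings CHK1 to active ATR. It was measured at 116, 109.8 and 108 CPM in Null control, 84.6, 104 and 109 in DKO control, 65.6, 69.6 and 65 in Null etoposide and 13.6, 12.8 and 13.9 in DKO etoposide libraries. The DKO etoposide libraries held 13.6% of the DKO control mean, whereas the Null etoposide libraries held 59.9% of the Null control mean. Clspn fell by 0.74 in Null and by 2.87 in DKO cells, an interaction of -2.13 (SE 0.128, adjusted p 3.02e-07). Topbp1 (ENSMUSG00000032555.9, chromosome 9, 103305215 to 103350428, plus strand), the ATR activator whose upstream E2F letters are shown above, lay at 223, 243 and 269 CPM in Null control, 225, 199 and 196 in DKO control, 192, 189.7 and 190.3 in Null etoposide and 116, 124 and 108 in DKO etoposide libraries. Null etoposide libraries were close together and below all controls, and DKO etoposide libraries were lower again. It fell by 0.36 and by 0.83, an interaction of -0.48 (adjusted p 0.0263) that was lost under 9 alternatives, with an adjusted p of up to 0.0832.

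Genes of the 9-1-1 clamp, which RAD9A, RAD1 and HUS1 form and RAD17 loads, had small responses in both lines, and for 3 of the 4 the DKO etoposide level lay below the Null etoposide level. Rad9a (ENSMUSG00000024824.6, chromosome 19, 4195196 to 4201662, minus strand) lay at 48.2, 55.7 and 49.3 CPM in Null control, 45.6, 42.2 and 38.3 in DKO control, 41.9, 47.2 and 41.2 in Null etoposide and 32.8, 33.1 and 29.8 in DKO etoposide libraries. Its lowest group was DKO etoposide, without overlap with the others, and the DKO control and Null etoposide libraries overlapped. The response was -0.23 in Null cells (adjusted p 0.0605) and -0.40 in DKO cells (adjusted p 0.00411), and the interaction was -0.16 (SE 0.129, adjusted p 0.563). In Null cells the response passed the threshold under 9 alternatives, between -0.29 and -0.23, DESeq2 among them. Rad9a overlaps Ppp1ca on the opposite strand, and since reads of both strands appear to be counted, up to 73.7% of its counts could be reads of that gene. Hus1 responded by -0.11 in Null cells (adjusted p 0.308) and fell by 0.40 in DKO cells. Rad1 had responses of 0.20 and -0.04 and Rad17 of -0.01 and 0.09, of which 0 passed the test by limma-trend. After etoposide the difference between the lines was -0.44 for Rad9a (adjusted p 0.00231), -0.55 for Hus1 (adjusted p 0.000201) and -0.54 for Rad1 (adjusted p 0.0375, lost under 8 alternatives). Before treatment it was -0.28 (adjusted p 0.0487, lost under 11 alternatives), -0.27 (adjusted p 0.0393, lost under 8) and -0.30 (adjusted p 0.314), so that Rad9a and Hus1 were called lower in the DKO line in both conditions. Up to 10.9% of the Rad17 counts could be reads of Ak6. Atrip, the partner of ATR, had responses of -0.05 and -0.02, and the neighbour Trex1 could supply more reads than Atrip holds, so its counts are uncertain.

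**Figure D2:**
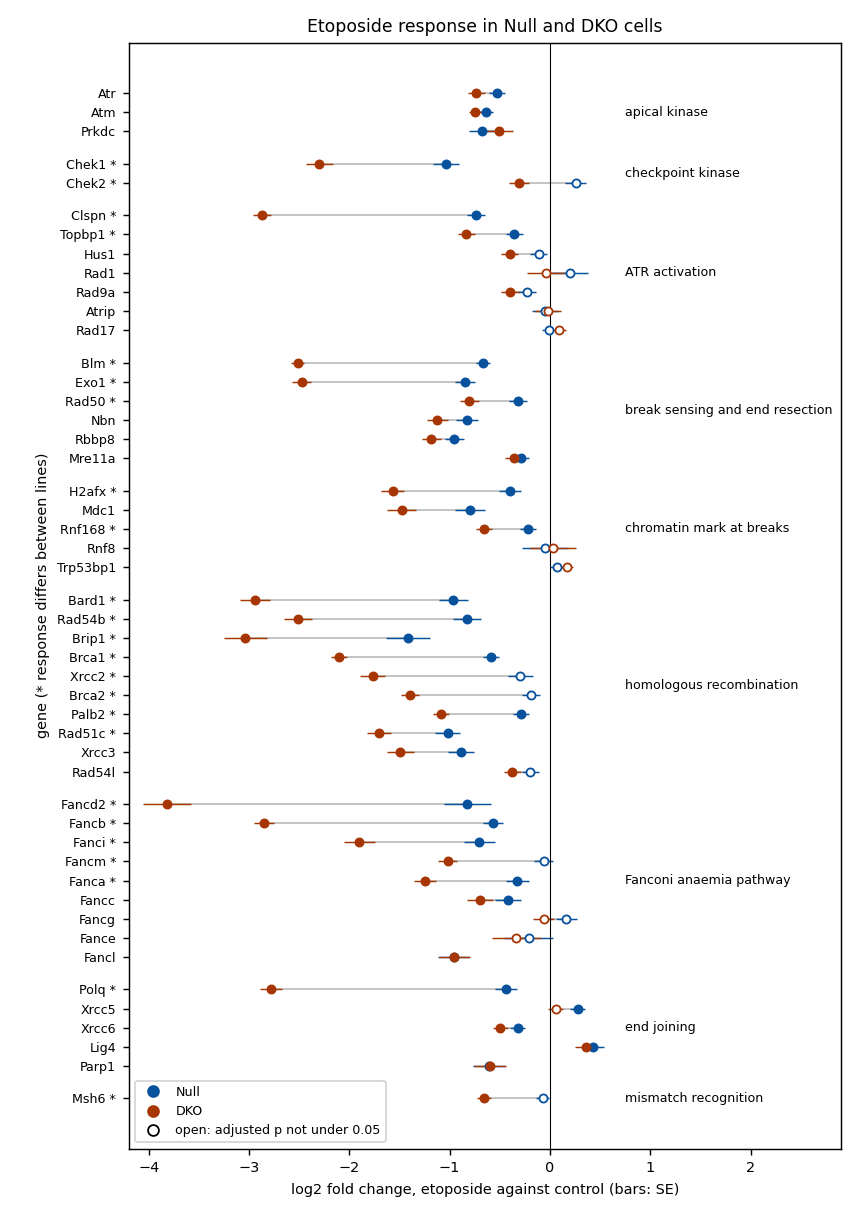
Log2 fold change of each member with etoposide in Null cells (blue) and DKO cells (brown), with SE as bars; open circles did not pass the test, grey lines join the lines of 1 gene and an asterisk marks a called interaction. For 41 of the 48 members the DKO value lies to the left of the Null value, with Fancd2 at -3.82 against -0.82, and the points of Fancl and Parp1, which are among the other 7, coincide.

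All 6 genes of break sensing and end resection fell in both lines (background 18.7% in Null and 19.1% in DKO cells), and the long-range resection pair fell most in DKO cells. Blm (ENSMUSG00000030528.12, chromosome 7, 80454733 to 80535119, minus strand), the helicase that unwinds ends ahead of the nucleases, lay at 76.9, 81.1 and 80.9 CPM in Null control, 62.6, 65.5 and 62.6 in DKO control, 52.8, 49.9 and 47.7 in Null etoposide and 10.7, 11.4 and 11.2 in DKO etoposide libraries. The groups followed the order Null control, DKO control, Null etoposide and DKO etoposide, and no group overlapped another. Blm fell by 0.67 in Null and by 2.51 in DKO cells, an interaction of -1.85 (SE 0.093, adjusted p 6.1e-08). Exo1 (ENSMUSG00000039748.11, chromosome 1, 175880581 to 175913489, plus strand), the exonuclease of the same step, lay at 36.4, 45.4 and 45.3 CPM in Null control, 36.8, 32.2 and 33.5 in DKO control, 22.3, 24.6 and 23.5 in Null etoposide and 6.18, 6.02 and 6.07 in DKO etoposide libraries. DKO etoposide libraries were between 6.02 and 6.18 CPM, and the lowest other library was at 22.3 CPM. Exo1 fell by 0.85 and by 2.47, an interaction of -1.63 (SE 0.136, adjusted p 6.18e-06).

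The MRN complex, which tethers ends and starts resection, had interactions closer to zero than Blm and Exo1. Rad50 (ENSMUSG00000020380.16, chromosome 11, 53649519 to 53707319, minus strand) lay at 124, 117 and 118 CPM in Null control, 99.5, 111 and 127 in DKO control, 101, 89.7 and 97.2 in Null etoposide and 63.5, 59.7 and 69.4 in DKO etoposide libraries. The Null etoposide libraries overlapped the DKO control libraries, and the DKO etoposide libraries lay below all others. It fell by 0.32 and by 0.80, an interaction of -0.49 (adjusted p 0.0352) that was lost under 11 alternatives, with an adjusted p of up to 0.129. Nbn fell by 0.83 and by 1.12 and Mre11a by 0.29 and by 0.36, with interactions of -0.30 (adjusted p 0.297) and -0.07 (adjusted p 0.823). Rbbp8, which encodes CtIP, the cofactor of MRE11, fell by 0.95 and by 1.18, with an interaction of -0.23 (adjusted p 0.39). Mre11a was higher in DKO than in Null cells, by 0.32 before treatment (adjusted p 0.0128) and by 0.25 after it (adjusted p 0.029). The call before treatment was lost under 2 alternatives and the call after it under 7, library size alone among both, with adjusted p of up to 0.0939 and 0.125. The interactions of these 4 genes thus lay between -0.49 and -0.07, against -1.85 for Blm and -1.63 for Exo1.

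In the chromatin response the histone gene and the scaffold gene fell furthest. H2afx (ENSMUSG00000049932.3, chromosome 9, 44334694 to 44336077, plus strand) encodes H2AX, the histone phosphorylated beside breaks. It lay at 122, 95.5 and 91.2 CPM in Null control, 116, 113 and 120.3 in DKO control, 69.3, 88.6 and 75.3 in Null etoposide and 41.1, 37.4 and 39.3 in DKO etoposide libraries. The control groups overlapped, Null etoposide libraries were lower, and DKO etoposide libraries were lowest, at 33.7% of the DKO control mean. H2afx fell by 0.40 in Null cells (adjusted p 0.0139) and by 1.57 in DKO cells, an interaction of -1.17 (SE 0.16, adjusted p 0.000443). The annotated gene Gm44335 lies inside H2afx on the opposite strand, and up to 67.5% of the H2afx counts could be shared with it. Mdc1, the scaffold that reads phosphorylated H2AX, fell by 0.80 in Null and by 1.48 in DKO cells, and its interaction of -0.68 did not pass the test (adjusted p 0.0613).

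Of the ubiquitin ligases that act next, Rnf168 (ENSMUSG00000014074.17, chromosome 16, 32277459 to 32301434, plus strand) lay at 43.9, 42.1 and 45.2 CPM in Null control, 41.8, 41.9 and 44.3 in DKO control, 39.6, 35.7 and 37.8 in Null etoposide and 25.8, 25.4 and 29.9 in DKO etoposide libraries. The 9 libraries of the other groups lay between 35.7 and 45.2 CPM, and the DKO etoposide libraries lay below them. Rnf168 fell by 0.21 in Null cells (adjusted p 0.0477) and by 0.66 in DKO cells, an interaction of -0.44 (adjusted p 0.0249). The Null call was lost under 10 alternatives, edgeR's quasi-likelihood test among them, and the interaction under 8, with adjusted p of up to 0.175 and 0.103. Rnf8 had responses of -0.05 and 0.03 and cannot be separated from the overlapping gene Gm28043. Trp53bp1, which encodes 53BP1, the protein that shields ends from resection, had responses of 0.07 (adjusted p 0.441) and 0.16 (adjusted p 0.056) and after etoposide its level in DKO cells exceeded that in Null cells by 0.32 (adjusted p 0.00164). It was already higher in DKO controls by 0.22 (adjusted p 0.0248, lost under 10 alternatives). Up to 21.5% of the Trp53bp1 counts could be reads of Tubgcp4.

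Homologous recombination, the largest role and by share level with the 2 checkpoint kinase genes, held the most members lower in DKO cells. All 10 genes fell with etoposide in DKO cells (median -1.74), 7 fell in Null cells (median -0.71), and after the drug all 10 lay lower in the DKO line (median -1.75), the smallest difference being that of Rad54l at -0.25 (adjusted p 0.0434), a call lost under 10 alternatives with an adjusted p of up to 0.135. Interactions were called lower for 8 of 10. The shares of all genes for these 4 counts were 19.1%, 18.7%, 17.8% and 6.39%. Bard1 (ENSMUSG00000026196.7, chromosome 1, 71027498 to 71103146, minus strand), the partner of BRCA1, lay at 24.4, 32.1 and 33.1 CPM in Null control, 29.9, 21.2 and 23.3 in DKO control, 14.3, 14.1 and 17.3 in Null etoposide and 3.16, 3.10 and 3.17 in DKO etoposide libraries. The 3 DKO etoposide libraries lay between 3.10 and 3.17 CPM and the lowest other library was at 14.1 CPM. Bard1 fell by 0.97 in Null and by 2.94 in DKO cells, an interaction of -1.97 (SE 0.206, adjusted p 4.61e-05). Rad54b (ENSMUSG00000078773.11, chromosome 4, 11558922 to 11615805, plus strand), a motor protein of strand exchange, lay at 22.5, 23.4 and 25 CPM in Null control, 21.3, 20.7 and 18.2 in DKO control, 13.6, 13.1 and 13.3 in Null etoposide and 2.65, 4.09 and 3.85 in DKO etoposide libraries. Again the DKO etoposide libraries stood below all others, and up to 10.9% of the counts could belong to Fsbp, which shares exons with it. Rad54b fell by 0.82 and by 2.51, an interaction of -1.69 (SE 0.197, adjusted p 0.000122).

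Brip1 (ENSMUSG00000034329.16, chromosome 11, 86058138 to 86201193, minus strand), the helicase that binds BRCA1, lay at 146, 109.8 and 93.8 CPM in Null control, 73, 114 and 137 in DKO control, 45.9, 40.4 and 42.5 in Null etoposide and 11.9, 11 and 15.6 in DKO etoposide libraries. Its control libraries spread widely, from 73 to 146 CPM, and the etoposide groups lay below them and apart from each other. Brip1 fell by 1.42 in Null cells, the lowest value of any member in that line, and by 3.04 in DKO cells, an interaction of -1.62 (SE 0.308, adjusted p 0.00499). Brca1 fell by 0.59 and by 2.10 (interaction -1.51, SE 0.117, adjusted p 2.78e-06). Its means were 106 ± 10.2, 84.8 ± 7.11, 70.1 ± 0.342 and 19.6 ± 0.562 CPM (SD, n = 3) in Null control, DKO control, Null etoposide and DKO etoposide libraries.

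Brca2, which loads the recombinase onto single-stranded DNA, did not pass the test in Null cells. Its means were 90.5 ± 2.00 CPM in Null control and 79.3 ± 4.60 CPM in Null etoposide libraries, against 62.1 ± 6.25 CPM in DKO control and 23.5 ± 2.01 CPM in DKO etoposide libraries (SD, n = 3). The response was -0.19 in Null cells (adjusted p 0.109) and -1.40 in DKO cells (adjusted p 9.57e-08), an interaction of -1.21 (SE 0.126, adjusted p 4.44e-05). Brca2 was also lower in DKO controls, by -0.55 (adjusted p 0.00066). Xrcc2, a gene of the recombinase family, likewise had -0.30 in Null cells (adjusted p 0.0799) and -1.77 in DKO cells, an interaction of -1.47 (adjusted p 0.00015).

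Palb2, the bridge between BRCA1 and BRCA2, fell by 0.29 and by 1.08, an interaction of -0.80 (adjusted p 0.000632). Rad51c, which acts with XRCC3, fell by 1.02 and by 1.71, an interaction of -0.69 (adjusted p 0.0254) that was lost under 9 alternatives, with an adjusted p of up to 0.0898. Xrcc3 itself fell by 0.89 and by 1.49, and its interaction of -0.60 did not pass the test (adjusted p 0.0669). Rad54l, a motor protein like RAD54B, had -0.19 in Null cells (adjusted p 0.0939) and fell by 0.38 in DKO cells, an interaction of -0.18 (adjusted p 0.472), and up to 56.7% of its counts could be reads of Lrrc41. Both motor genes thus passed the test in DKO cells, at -2.51 for Rad54b and -0.38 for Rad54l.

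**Figure D3:**
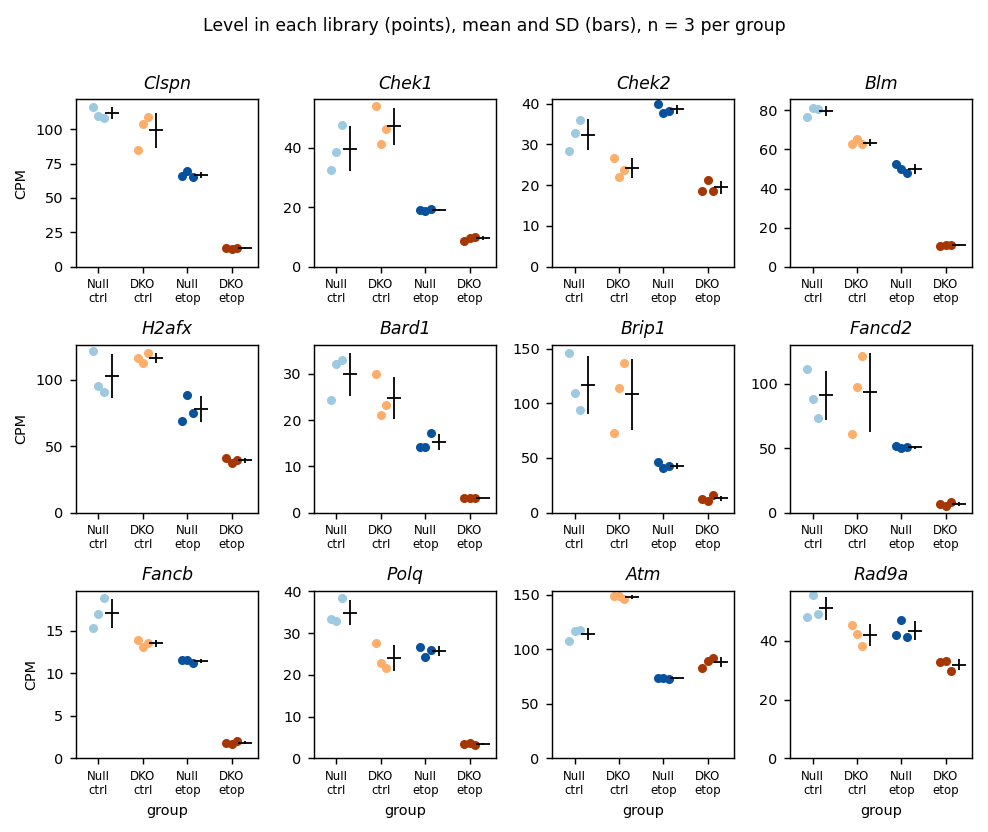
CPM (linear axis from 0) of 12 members in each library as points, with the mean and SD of each group (n = 3) as a bar beside them. DKO etoposide libraries are lowest in 11 of the 12 panels, at 12.8 to 13.9 CPM for Clspn and 3.10 to 3.17 CPM for Bard1, whereas for Atm the Null etoposide libraries are lowest.

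Fanconi anaemia genes held both the largest fall of all members and some that did not pass the test in either line. Fancd2 (ENSMUSG00000034023.16, chromosome 6, 113531682 to 113597017, plus strand) encodes the protein that is ubiquitinated as the central step of the pathway. It lay at 111, 88 and 73.5 CPM in Null control, 61, 97 and 122 in DKO control, 51.8, 49.7 and 50.5 in Null etoposide and 6.69, 4.76 and 7.88 in DKO etoposide libraries. Control libraries of the lines overlapped, from 73.5 to 111 CPM in Null and from 61 to 122 CPM in DKO cells, Null etoposide libraries lay between 49.7 and 51.8 CPM, and DKO etoposide libraries lay at 6.91% of the DKO control mean. Fancd2 fell by 0.82 in Null cells (SE 0.239, adjusted p 0.0157) and by 3.82 in DKO cells, an interaction of -2.99 (SE 0.337, adjusted p 8.68e-05). Without Null control replicate 1 the Null response was -0.67 and no longer passed (adjusted p 0.0592). The lines did not differ before treatment beyond their spread, with a difference of 0.00 (SE 0.239).

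Fancb (ENSMUSG00000047757.16, chromosome X, 164980592 to 164997272, plus strand), of the core complex that ubiquitinates FANCD2, lay at 15.3, 17 and 18.8 CPM in Null control, 13.9, 13.1 and 13.5 in DKO control, 11.6, 11.6 and 11.2 in Null etoposide and 1.78, 1.68 and 2.02 in DKO etoposide libraries. Again no DKO etoposide library reached the level of any other. Fancb fell by 0.57 and by 2.85, an interaction of -2.28 (SE 0.145, adjusted p 4.91e-07). Fanci (ENSMUSG00000039187.16, chromosome 7, 79391929 to 79450264, plus strand), which encodes the partner of FANCD2, lay at 33.4, 42.3 and 47 CPM in Null control, 36.1, 26.8 and 26.6 in DKO control, 25.1, 25.6 and 23.8 in Null etoposide and 7.74, 9.20 and 6.79 in DKO etoposide libraries. All 3 DKO etoposide libraries were below the 9 others. Fanci fell by 0.70 and by 1.90, an interaction of -1.20 (SE 0.217, adjusted p 0.0035), and up to 57.6% of its DKO etoposide counts could be reads of Polg on the opposite strand. Fancm, the translocase that anchors the core complex, had -0.06 in Null cells (adjusted p 0.66) and fell by 1.02 in DKO cells, an interaction of -0.96 (adjusted p 0.000541). Fanca, of the same core complex as FANCB, fell by 0.33 (adjusted p 0.0367, lost under 7 alternatives, with an adjusted p of up to 0.127) and by 1.25, an interaction of -0.92 (adjusted p 0.00256), and up to 22.7% of its counts could be reads of Zfp276.

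The other 4 Fanconi genes did not pass the interaction test. Fancl, the ubiquitin ligase of the core complex, fell by 0.96 and by 0.95, with an interaction of 0.01 (SE 0.217), and up to 11.9% of its counts could be reads of Vrk2. Fancc fell by 0.42 in Null and by 0.70 in DKO cells (-0.28, adjusted p 0.463). Fance had -0.21 and -0.34 and Fancg, whose upstream E2F letters are shown above, had 0.16 and -0.06, with adjusted p of 0.529, 0.306, 0.23 and 0.667.

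Among the end joining genes only Polq had a called interaction. Polq (ENSMUSG00000034206.15, chromosome 16, 37011786 to 37095417, plus strand) encodes polymerase theta, which joins resected ends through short homologies. It lay at 33.4, 33 and 38.3 CPM in Null control, 27.7, 22.8 and 21.7 in DKO control, 26.7, 24.3 and 26 in Null etoposide and 3.49, 3.66 and 3.17 in DKO etoposide libraries. The Null etoposide and DKO control libraries overlapped, and the DKO etoposide libraries were at 14.3% of the DKO control mean. Polq fell by 0.44 in Null and by 2.78 in DKO cells, an interaction of -2.34 (SE 0.151, adjusted p 5.57e-07), and it was already lower in DKO controls by -0.54 (adjusted p 0.00288). Genes of classical end joining did not pass the interaction test. Lig4, the ligase, rose by 0.43 in Null cells (adjusted p 0.00606) and by 0.36 in DKO cells (adjusted p 0.0174), the DKO call being lost under 4 alternatives. Xrcc5, which encodes KU80, rose by 0.27 in Null cells (adjusted p 0.0106) and had 0.06 in DKO cells (adjusted p 0.586), and its partner Xrcc6 (KU70) fell by 0.32 and by 0.49. Xrcc5 was higher in DKO cells by 0.53 before treatment (adjusted p 0.0002), the highest such value of any member, and by 0.31 after it (adjusted p 0.0058). Its means were 24.1 ± 1.57, 34.9 ± 1.02, 29.2 ± 0.332 and 36.3 ± 2.37 CPM (SD, n = 3) in Null control, DKO control, Null etoposide and DKO etoposide libraries. Interactions of Lig4, Xrcc5 and Xrcc6 were -0.07, -0.22 and -0.17, with adjusted p of 0.865, 0.27 and 0.393. Parp1, a sensor of single-strand breaks that also serves polymerase theta repair, fell by 0.61 and by 0.60 (interaction 0.01, SE 0.223).

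Msh6 (ENSMUSG00000005370.3, chromosome 17, 87975062 to 87990892, plus strand), the mismatch sensor, was the last member. It lay at 155, 159 and 174 CPM in Null control, 152, 142 and 141 in DKO control, 158, 153 and 153 in Null etoposide and 88.3, 93.7 and 94.4 in DKO etoposide libraries. The Null groups overlapped, and the DKO etoposide libraries reached at most 94.4 CPM while all others were at 141 CPM or more. The response was -0.07 in Null cells (adjusted p 0.431) and -0.66 in DKO cells (adjusted p 7.06e-06), an interaction of -0.59 (SE 0.0945, adjusted p 0.00154).

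**Figure D4:**
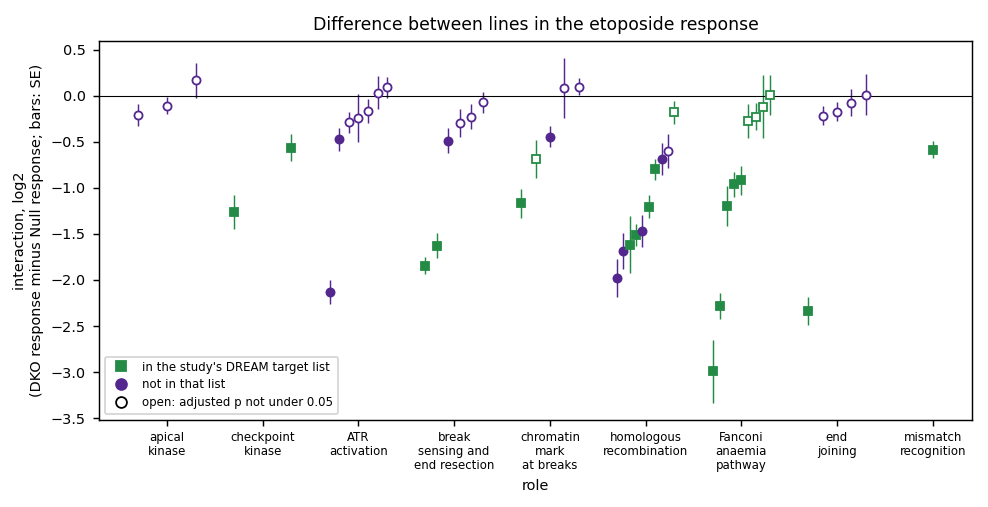
Interaction (DKO response minus Null response, log2, bars SE) of each member by role, with green squares for members of the study's DREAM target list and purple circles for the others; open symbols did not pass the test. Called members outside the list, such as Clspn at -2.13 and Bard1 at -1.97, lie among those inside it, and the lowest are Fancd2 at -2.99 and Polq at -2.34.

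Membership of the study's DREAM target list was compared next. Of the 48 members 22 were in it and 26 were not. The list was displayed by the study in these same libraries, so its counts are not independent evidence of a direction. Interactions were called lower for 16 of 22 listed members (median -1.07) and for 8 of 26 others (median -0.22), against 6.39% of all genes. With a library left out the 16 stayed between 15 and 17, but the 8 became 4 without any 1 of Null control replicate 2, DKO control replicate 2, Null etoposide replicate 1 or DKO etoposide replicate 1, and 5 without Null etoposide replicate 3. In DKO cells 20 of 22 and 19 of 26 fell with etoposide, and in Null cells 15 of 22 and 16 of 26, against 19.1% and 18.7% of all genes. The 8 called members outside the list were Bard1, Clspn, Rad50, Rad51c, Rad54b, Rnf168, Topbp1 and Xrcc2, of which 4 act in homologous recombination. Listed members without a called interaction were Mdc1, Rad54l, Fancc, Fance, Fancg and Fancl.

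Cell cycle genes moved with the members. Of 12 G1/S genes 10 had a lower interaction (median -0.75) and of 12 G2/M genes all 12 had one (median -3.14), against 6.39% of all genes. The summed CPM of the G1/S genes was 2170 to 2330 in Null control, 1650 to 1810 in DKO control, 1500 to 1600 in Null etoposide and 690 to 729 in DKO etoposide libraries. For the G2/M genes the sums were 2730 to 2890, 2500 to 2620, 1420 to 1490 and 194 to 199 CPM in the same order. The part of the cell cycle in the members' fall was not tested. Rrm2, which supplies deoxynucleotides in S phase, had an interaction of -2.48, and the mitotic genes Cenpf, Ccnb2, Plk1 and Ttk had -4.53, -4.30, -4.26 and -3.64. All 12 p53 target genes rose in Null cells and 10 rose in DKO cells, with 9 of 12 lower in the interaction (Phlda3 -1.80, Eda2r -1.65, Bbc3 -1.57 and Trp53inp1 -1.53), against 20.9%, 20.2% and 6.39% of all genes. Between the control cultures 7 of these 12 were higher in DKO cells and 1 was lower (median 0.49, Eda2r 2.42; background 10.9% and 8.39%), and after etoposide 8 were lower (median -0.51; background 17.8%), with 0.77 for Eda2r (adjusted p 0.0675).

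Among repair and checkpoint genes beyond the 48, more fell than rose in both lines. Of 50 other repair and checkpoint genes, 22 fell and 4 rose in Null cells, 34 fell and 4 rose in DKO cells, and the interaction was lower for 18 and higher for 1 (median -0.38). Over all genes 18.7% fell and 20.9% rose in Null cells, 19.1% fell and 20.2% rose in DKO cells, and the interaction was lower for 6.39% and higher for 3.07%. The 4 with the largest interactions were Gen1, a nuclease that cuts recombination intermediates (-3.07), Rad51ap1 (-2.24), Recql4 (-1.73) and Ube2t, the conjugating enzyme that works with FANCL (-1.72). Between the control cultures 5 of the 50 were lower in DKO cells and 2 were higher, against 8.39% and 10.9% of all genes.

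Levels per length were taken in CPM per kilobase of exon, with exons merged over all annotated transcripts of a gene, so the order also depends on that length. They were highest for H2afx, Parp1 and Msh6 in Null control libraries, at 74.3 ± 12, 52.3 ± 8.91 and 37.5 ± 2.33 (SD, n = 3), and lowest for Rnf8, Lig4 and Fancc, at 1.06 ± 0.216, 0.975 ± 0.0547 and 0.94 ± 0.0861. The last 3 did not differ among themselves beyond their spread, and the Rnf8 level holds reads of an overlapping gene. The rank of H2afx is uncertain too, since up to 67.5% of its counts could be shared with Gm44335. In DKO etoposide libraries Parp1 (28.6 ± 3.53) and H2afx (28.4 ± 1.33) were level, and the lowest were Bard1 at 0.556 ± 0.00739, Fancc at 0.553 ± 0.0799 and Polq at 0.355 ± 0.0253. Polq had been above Fancc, Lig4 and Rnf8 in control cells of both lines, and Lig4 lay above it after etoposide in DKO cells.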

How the data were processed

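RNA of 12 cultures was sequenced, 3 in each of 4 groups taken from the sample titles. According to the methods, the authors depleted ribosomal RNA, made stranded libraries from total RNA, aligned read pairs with HISAT2 and kept unique pairs. Genes were counted with HTSeq according to the methods and with featureCounts on mm10 according to the submitters' processing notes; versions and the strand setting are not given in the sources used here. The authors deposited raw counts, 1 column per library, with no normalization. The labels name 2 RNA extraction kits without assigning them, so a kit effect was not tested.

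Identifiers were matched without their version to GENCODE M21 (GRCm38), which gave 99.4% of names and all coordinates. Where a gene fell inside exons of an opposite-strand gene with 20000 or more counts, its read density was 0.981 times that of the outer gene (median, 52 genes), so reads of both strands appear to be counted, and the largest share of counts that an overlapping gene could supply is given for members at 10% or more. Unique mapping lowers counts of genes with near-identical copies. Counts were filtered with filterByExpr of edgeR 4.0.16 (18066 genes, 99.96% of counts), scaled by TMM and converted to log2 CPM with a prior count of 3. All 12 libraries entered 1 limma-trend model (limma 3.58.1, R 4.3.3, robust moderation) with a mean per group and no covariate, as the methods name limma-trend. P-values are two-sided, adjusted by Benjamini-Hochberg over all genes tested and called at an adjusted p under 0.05. At these totals, the median squared difference between a pair of replicates was 3.40 to 53.6 times that from counting alone, so none was a repeat of 1 library. The fit was tested on simulated data.

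The members, roles and lists were chosen with earlier results of these data known, and no list was given a p-value. Values in every library are given, per role, for the members past the threshold with the largest interactions (up to 3 in roles of 5 or more members, up to 2 in smaller ones), for the member with the largest fold change where a role had none, and for Chek2, Rad9a, Tfeb and Tfe3. Brca1, Brca2 and the printed promoter stretches were given beyond that rule. Alternatives were edgeR's quasi-likelihood test, DESeq2 1.42.0, library size alone, RLE size factors, no filter, at least 1 CPM in 3 libraries, a prior count of 0.5, a replicate block, a fit of the 2 groups compared, each library left out and members with overlapping genes left out. A planned count of kinase sites in the proteins was not run. Promoters and motif searches used RefSeq windows on GRCm38.p6.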

Additional observations from a re-analysis of the deposited data

Results flagged for a closer look

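The response to etoposide differed between the lines for 24 members, by the interaction term of limma-trend with Benjamini-Hochberg adjustment. All had a lower value in DKO cells (background 6.39% lower and 3.07% higher over all genes). Among the recombination genes the interactions were -1.97 for Bard1, -1.69 for Rad54b, -1.62 for Brip1, -1.51 for Brca1, -1.47 for Xrcc2, -1.21 for Brca2, -0.80 for Palb2 and -0.69 for Rad51c. Fanconi genes had -2.99 for Fancd2, -2.28 for Fancb, -1.20 for Fanci, -0.96 for Fancm and -0.92 for Fanca. In resection and break sensing the values were -1.85 for Blm, -1.63 for Exo1 and -0.49 for Rad50. Checkpoint genes had -2.13 for Clspn, -1.26 for Chek1, -0.57 for Chek2 and -0.48 for Topbp1. The chromatin genes H2afx and Rnf168 had -1.17 and -0.44, polymerase theta (Polq) had -2.34 and the mismatch sensor Msh6 had -0.59.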

How the results depend on the processing

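Of 4992 values of single members under the alternatives, 4729 kept their side of the threshold, 199 no longer passed it and 64 newly passed it. Among values that passed in the main or the alternative fit, 0 changed sign. A value that passed in neither was counted as kept whatever its sign. Of the 24 interaction calls 19 held under every alternative run. The other 5 kept their direction and lost the call in fits without single libraries, among them Null control 2 (all 5), DKO etoposide 1 (all 5), Null etoposide 1 (all 5), DKO control 3 (Chek2, Rad50, Rnf168), DKO control 2 (Rad50, Rad51c, Rnf168, Topbp1), DKO control 1 (Chek2, Rad51c), Null control 3 (Rad50), Null etoposide 2 (Chek2, Rad51c, Topbp1), Null etoposide 3 (Chek2, Rad50, Rnf168, Topbp1), DKO etoposide 2 (Rad50, Rnf168) and DKO etoposide 3 (Chek2, Rad51c, Topbp1), with values from -0.71 to -0.38 over all their lost calls. With 1 library left out, 19 to 26 members had a lower interaction (background 4.59% to 6.64%). In the same fits 26 to 35 fell in Null cells (background 15% to 21.1%) and 38 to 39 fell in DKO cells (background 15.3% to 20%). The 1 member that rose in DKO cells became 2 with DESeq2 or library size alone and 0 with no filter or the 2 groups alone, and 0 to 2 with a library left out (0 without DKO control 3 or DKO etoposide 2, and 2 without DKO etoposide 1). In control cells the 5 members higher in DKO became 2 with library size alone or the 2 groups alone and 3 with no filter, the replicate block or overlapping members left out, and 3 to 5 with a library left out (3 without Null etoposide 1 or DKO etoposide 2). The 10 lower became 16 with library size alone, 6 with no filter and 3 with the 2 groups alone, and 4 to 17 with a library left out (17 without DKO control 1, 4 without Null control 2, Null control 3 or DKO control 3, and 6 without DKO control 2, Null etoposide 2 or Null etoposide 3), so the counts between control cultures rest on single libraries. After etoposide the 5 higher became 3 with overlapping members left out and 3 to 5 with a library left out (3 without Null etoposide 3 or DKO etoposide 2). Leaving out overlapping members moved the DKO median from -0.89 to -1.02. The replicate numbers did not pair the libraries (correlations of same-numbered deviations -0.542 to 0.394). With the replicate block 20 members had a lower interaction, 31 fell in Null and 38 in DKO cells (background 5.13%, 16.9% and 17.5%). The cause of these moves was not tested.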

Other observations

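Some members share a start region with a gene read the other way, and these neighbours were looked at after the members' values had been seen. Of 14 such pairs with both genes tested, Fancd2 and Emc3, whose starts lie 30 bases apart, had DKO responses of -3.82 and 0.13 on the log2 scale. Brca1 and Nbr1 (194 bases) had -2.10 and 0.56, Fancb and Mospd2 (217 bases) had -2.85 and -0.11, and Palb2 and Dctn5 (56 bases) had -1.08 and 0.29. Rad51c and Tex14 (111 bases) had -1.71 and 1.58, and Chek2 and Hscb (202 bases) had -0.31 and -0.48. These were the 6 pairs in which the member had a called interaction, and the neighbour's interaction was called in 0 of them (6.39% of all genes were called lower and 3.07% higher, so few calls could be met among 6 genes), with adjusted p of 0.386 for Emc3, 0.475 for Nbr1, 0.989 for Mospd2, 0.422 for Dctn5, 0.789 for Tex14 and 0.629 for Hscb (limma-trend with Benjamini-Hochberg adjustment). Among the other pairs, Xrcc3 and Zfyve21 had interactions of -0.60 and -0.60 (adjusted p 0.0669 and 0.253), and Atm and Npat had -0.11 and -0.38 with DKO responses of -0.74 and -0.52. Both genes had a DKO response below zero in 4 of the 14 pairs. The 1 neighbour with a called interaction was Mcm4 beside Prkdc (-0.46, adjusted p 0.0272, against 0.17).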
